A study of Mus musculus with 7 samples.

Results

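RelB, an NF-kB subunit, was gained over 3469 of 93611 genomic regions when bone marrow-derived dendritic cells (BMDCs) met lipopolysaccharide (LPS). The regions were chosen by their measured RelB signal: a region belonged to this set when its RelB signal in wild-type (WT) cells at 1 h of LPS was 10 RPKM or more and at least 2-fold above both the input library and the same antibody at 0 h, after adding 0.5 RPKM to each value. RPKM is the number of reads per region scaled by region length and library total. Of 33384 regions that passed the 1 h level and the limit over input, the gained regions made up 10.4%; the other 29915 are called not gained below and serve as the comparison. Because the choice used the WT RelB libraries and the input, their values at the gained regions are given as a description, while RelA and the RelB antibody in RelB-deficient (RelBko) cells did not enter it.

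The cells were grown from C57BL/6 mouse marrow in GM-CSF (20 ng/ml) and IL-4 (10 ng/ml), and the study asked what loss of RelB does to DNA binding by RelA. Chromatin immunoprecipitation (ChIP-seq) used an antibody to RelB in untreated WT cells, WT cells after 1 h of LPS at 10 ng/mL, untreated RelBko cells and RelBko cells after 1 h of LPS. An antibody to RelA was used in WT and in RelBko cells, each after 1 h of LPS; the seventh library was WT input with no antibody, for which no time or treatment is named. Each of these 7 groups was 1 library, so no difference between times or genotypes has a replicate check and no p-value is given. Neither the making of the RelBko allele nor the number of mice behind each library is stated in the sources used here. The treatment text names a CpG oligonucleotide reagent beside LPS, and the stimulus is called LPS as in the sample labels. ChIP signal does not measure expression, so markers could not check the cell type, and a weaker signal in all cells cannot be told apart from the same signal in fewer cells.

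NF-kB factors bind DNA as pairs of subunits. RelA usually pairs with p50, is held in the cytoplasm by IkB proteins and enters the nucleus within minutes of LPS sensing through TLR4. RelB pairs with p50 or with p52, the product of the noncanonical pathway, and is required for the normal development and maturation of dendritic cells. Both recognise the kB element, a short DNA sequence with a run of G at one end and a run of C at the other.

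Library totals ran from 13.2 M to 35.1 M reads. At the gained regions the median region held 85 and 200 reads in the WT RelB libraries at 0 and 1 h, 104 and 147 reads in the RelA libraries of WT and RelBko, 10 and 11 reads in the RelBko RelB libraries at 0 and 1 h, and 5 reads in the input. Ratios involving the RelBko RelB libraries or the input are therefore the least precise. Intervals are 95% intervals, Clopper-Pearson for ratios of reads and Wilson for shares of regions; they cover only the counting of reads or the sampling of regions, because reads carry no molecular identifier and all regions share the same libraries.

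The sequences below are promoters with a gained region over them, shown because their letters carry, or lack, the elements that NF-kB and interferon factors are known to bind. Each is the 250 bases before the transcription start site (TSS), from RefSeq (GRCm38.p6), on the gene's strand. Capitals in Ebi3, Cxcl1 and Gch1 mark a match to the NF-kB consensus, and in Isg15 matches to the interferon-stimulated response element core GAAANNGAA. Dusp2 holds neither and is all in lower case.
Ebi3: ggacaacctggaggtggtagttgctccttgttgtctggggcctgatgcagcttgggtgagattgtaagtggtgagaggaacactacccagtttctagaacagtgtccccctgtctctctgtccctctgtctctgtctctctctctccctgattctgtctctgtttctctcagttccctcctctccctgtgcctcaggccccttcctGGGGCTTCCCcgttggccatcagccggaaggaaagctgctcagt
Cxcl1: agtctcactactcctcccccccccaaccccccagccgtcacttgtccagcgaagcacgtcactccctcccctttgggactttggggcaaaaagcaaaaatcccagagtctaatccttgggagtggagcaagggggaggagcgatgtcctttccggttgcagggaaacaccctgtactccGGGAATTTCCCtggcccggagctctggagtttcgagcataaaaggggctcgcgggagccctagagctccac
Gch1: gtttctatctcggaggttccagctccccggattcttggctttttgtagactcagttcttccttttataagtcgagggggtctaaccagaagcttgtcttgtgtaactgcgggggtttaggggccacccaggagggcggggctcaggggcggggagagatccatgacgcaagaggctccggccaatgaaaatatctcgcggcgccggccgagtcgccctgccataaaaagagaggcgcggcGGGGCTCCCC
Isg15: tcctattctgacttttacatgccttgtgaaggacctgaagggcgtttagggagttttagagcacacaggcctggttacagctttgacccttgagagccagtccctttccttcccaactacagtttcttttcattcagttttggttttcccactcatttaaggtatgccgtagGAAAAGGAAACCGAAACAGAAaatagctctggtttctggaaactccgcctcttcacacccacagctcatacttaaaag
Dusp2: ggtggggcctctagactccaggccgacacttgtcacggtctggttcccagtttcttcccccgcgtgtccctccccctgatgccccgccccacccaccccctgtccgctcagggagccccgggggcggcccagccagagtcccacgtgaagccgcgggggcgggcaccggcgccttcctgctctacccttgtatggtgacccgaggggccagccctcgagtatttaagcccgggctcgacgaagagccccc
On GRCm38.p6 these windows are chr17:55952373-55952622 on the plus strand for Ebi3, chr5:90890995-90891244 on the plus strand for Cxcl1, chr14:47189414-47189663 on the minus strand for Gch1, chr4:156200819-156201068 on the minus strand for Isg15 and chr2:127335909-127336158 on the plus strand for Dusp2. The match starts 44 bases before the TSS in Ebi3 and 10 bases before it in Gch1. In Cxcl1 the run read from 71 bases before the TSS is a match on both strands, offset by 1 base. In Isg15 the 3 matches start 78, 72 and 66 bases before the TSS and overlap at their ends.

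Ebi3, a subunit shared by interleukin 27 and interleukin 35, had the strongest RelB signal among the regions over these 5 windows. Its region (mm9 chr17:56091561-56092217) went from 35.6 RPKM of RelB at 0 h to 100.6 at 1 h in WT, with 103 RPKM of RelA in WT and 117 in RelBko; the RelB antibody gave 7.49 and 6.71 RPKM in RelBko at 0 and 1 h, and the input 1.62. Cxcl1, a neutrophil-attracting chemokine, went from 4.74 to 14.9 RPKM of RelB, with 26.6 RPKM of RelA in WT and 27.5 in RelBko. Gch1, which makes the cofactor of nitric oxide synthase, went from 13.5 to 50.8 RPKM of RelB with RelA at 40.9 and 40.7 RPKM. Isg15, an interferon-induced ubiquitin-like protein, went from 20.9 to 43.0 RPKM of RelB, and RelA was 30.9 RPKM in WT and 41.9 in RelBko. Dusp2, a phosphatase that turns off MAP kinases, had 26.0 and 73.3 RPKM of RelB at the region over this window, with RelA at 96.6 and 105 RPKM. At these 5 promoters RelA in RelBko stood within 1.36-fold of WT, with Isg15 the farthest.

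In 140 genes a gained region overlapped the window from 250 bases before to 50 after the TSS by 100 bp or more, and 82 of these genes had a single promoter entry in RefSeq. The NF-kB consensus was found on either strand in 11 of the 82 windows (13.4%, interval 7.66 to 22.4%), against 255 of 2809 promoters with a not gained region (9.08%, interval 8.07 to 10.2%) and 974 of all 22862 promoters with 1 entry (4.26%). The intervals of gained and not gained promoters overlap. A GC box (GGGCGGGG) was found in 29.3% of the gained windows (interval 20.5 to 39.9%), 42.1% of the not gained (40.3 to 43.9%) and 17.4% of all; these first 2 intervals do not overlap. The AP-1 element TGANTCA was in 8.54%, 5.45% and 7.98% of the same sets, the PU.1 element GAGGAAG in 12.2%, 15.3% and 13.5%, the interferon core in 11.0%, 6.59% and 8.62%, and the E-box CACGTG in 11.0%, 12.2% and 7.12%. The cyclic AMP element TGACGTCA was in 2.44%, 3.92% and 1.85%, and the C/EBP element TTGCNNAAT in 1.22%, 1.17% and 2.45%. Both strands were searched for every element, and overlaps between elements were not removed. RelA medians at promoters with the consensus were 26.6 RPKM in WT and 32.7 in RelBko (11 promoters), and at those without it 21.5 and 23.0 RPKM (71 promoters).

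By the rule, RelB rose at every gained region: the median went from 6.41 RPKM at 0 h (quartiles 4.48 and 10.6) to 18.9 RPKM at 1 h (13.3 and 29.0), a median fold of 2.58 and a highest fold of 15.6. At 0 h 3185 of the 3469 regions (91.8%) were already enriched for RelB, where enriched means 2 RPKM or more and 2-fold or more over input. Of not gained regions 99.98% were enriched at 0 h, and of all 93611 regions 75.9%. Among gained regions this share followed the 1 h level of the rule, from 80.6% at 10 to 15 RPKM to 100% from 50 RPKM up. The other 284 gained regions, not enriched at 0 h, went from a median of 2.26 to 12.1 RPKM. Not gained regions had a similar 1 h level (median 19.7 RPKM) and a higher 0 h level (18.4 RPKM). The region just inside the 2-fold limit, near Mdm4, had 11.6 and 23.8 RPKM, and the one just outside, near Pik3cb, had 17.0 and 34.5 RPKM. At the level limit, a region near Chit1 at 10.0 RPKM was inside and one near Gm5420, at 9.9975 RPKM, was outside. The gained region closest to the input limit, near Abi2, was 3.07-fold above input.

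**Figure D1:**
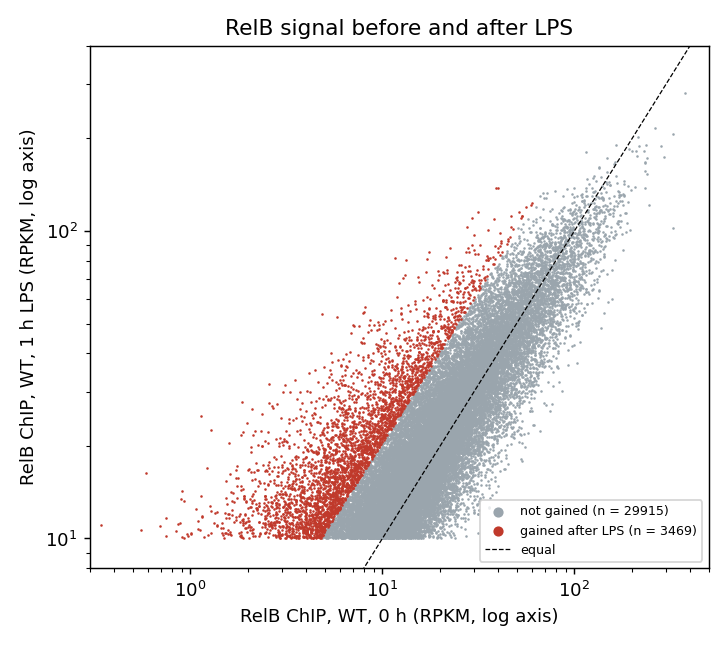
RelB ChIP signal of WT BMDCs at 0 h (x axis) and at 1 h of LPS (y axis), in RPKM on log axes, 1 point per region, for the 3469 gained regions and the 29915 not gained ones. The straight edges of the gained points are the limits of 10 RPKM and 2-fold that chose them; their 1 h signal reached 138 RPKM.

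RelA was present at nearly all of these regions in WT cells. Enrichment for RelA at 1 h was met by 3460 of 3469 gained regions (99.7%, interval 99.5 to 99.9%) and by 99.8% of the not gained ones. The median RelA signal was 15.8 RPKM at gained regions (quartiles 10.6 and 25.1) and 17.3 RPKM at not gained regions. In RelBko cells the median RelA signal at gained regions was 16.6 RPKM (quartiles 9.88 and 27.3), and 3351 regions (96.6%) were enriched. No gained region was enriched for RelA in RelBko alone, and 109 were enriched in WT alone, with medians of 5.62 RPKM in WT and 1.57 in RelBko. Enrichment in both genotypes was met by 96.6% of gained, 98.5% of not gained and 71.5% of all 93611 regions. For not gained regions the share was 99.8% in WT and 98.5% in RelBko, and for all regions 82.0% and 75.9%.

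**Figure D2:**
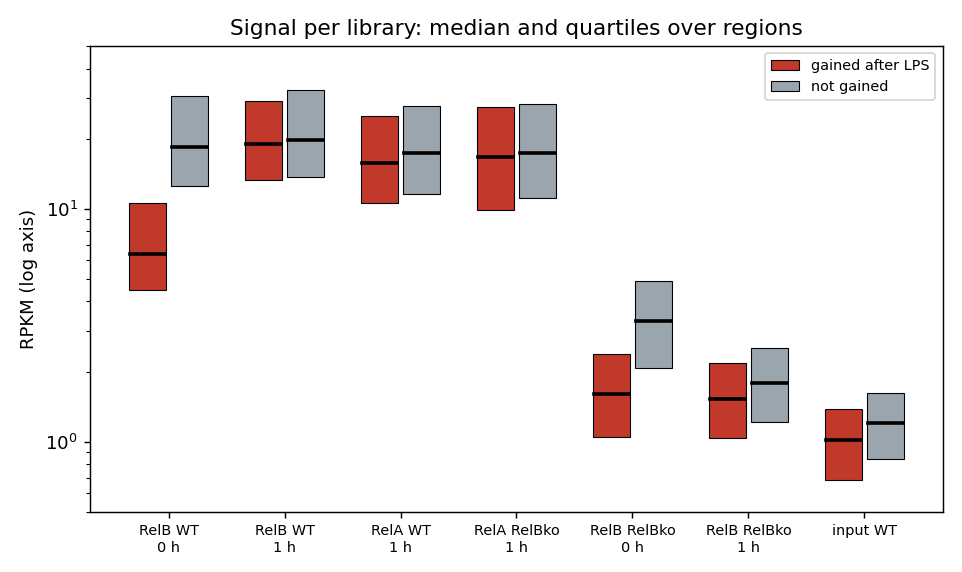
Signal in each of the 7 libraries in RPKM on a log axis, gained regions against not gained regions; each box spans the lower to the upper quartile over regions and the line is the median. The 2 sets are close in WT RelB at 1 h and in both RelA libraries, and apart in the RelB libraries at 0 h of both genotypes.

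RelA signal in RelBko was close to WT at most gained regions. The median log2 ratio of RelBko over WT was 0.03, with quartiles of -0.30 and 0.28 and extremes of -3.07 and 1.51. RelA was 2-fold or more lower in RelBko at 200 gained regions (5.77%, interval 5.04 to 6.59%) and 2-fold or more higher at 24 (0.69%, interval 0.47 to 1.03%). Among all 80885 regions enriched for RelA in either genotype, 4.94% were lower and 1.3% were higher by that limit, so the share lower at gained regions was near the background. Against not gained regions, which share the level of WT RelB at 1 h, it was larger: 771 of 29915 were lower there (2.58%, interval 2.40 to 2.76%) and 30 were higher (0.10%). Each of the 200 lower regions had an interval of the read ratio under 1 (medians 55 reads in WT and 23.5 in RelBko), and each of the 24 higher ones an interval over 1 (71 and 225.5 reads). These intervals use the same reads that set the 2-fold limit, so they are no separate support for a change.

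Lower RelA was more frequent at weaker RelB regions. The share with lower RelA was 7.98% at a WT RelB 1 h signal of 10 to 15 RPKM, 6.38% at 15 to 20, 4.61% at 20 to 30, 3.66% at 30 to 50 and 2.02% (5 of 247) from 50 RPKM up. For not gained regions in the same bands the shares were 3.21%, 2.66%, 2.28%, 2.16% and 1.83%. The intervals of the 2 sets did not overlap up to 30 RPKM and overlapped above it. Median RelA in WT rose over the same bands from 9.75 to 48.5 RPKM, so weak RelA signal moves with the share; its part in the result was not tested. The 200 regions with lower RelA had a median RelA of 8.26 RPKM in WT and 2.78 in RelBko, and a median RelB of 5.42 RPKM at 0 h and 15.7 at 1 h in WT. Of them 105 were still enriched for RelA in RelBko.

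**Figure D3:**
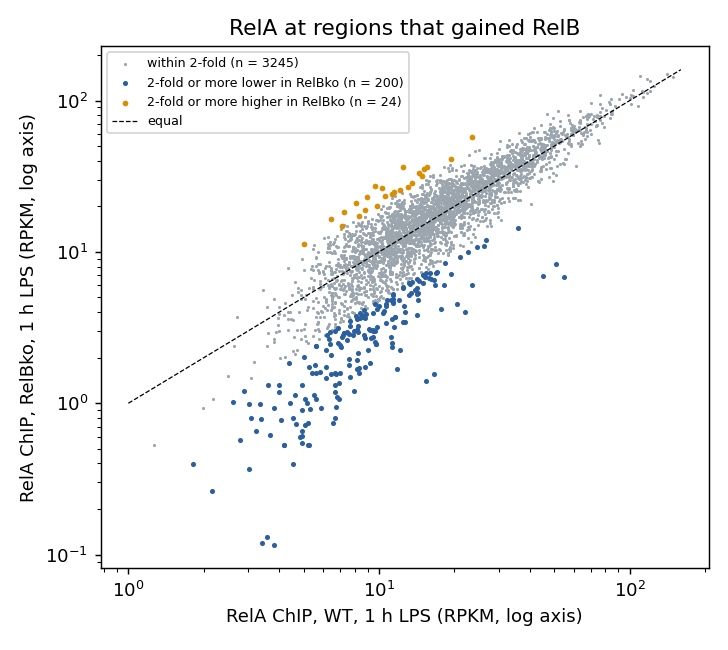
RelA ChIP signal at the 3469 gained regions in WT (x axis) and RelBko BMDCs (y axis) after 1 h of LPS, in RPKM on log axes, 1 point per region. Blue points are the 200 regions 2-fold or more lower in RelBko and orange points the 24 that were 2-fold or more higher; blue points are mostly at low WT signal, with Samsn1 at 54.9 RPKM the farthest right.

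Of the 6 largest RelA losses among regions with a mean RelA of 10 RPKM or more, 4 lay in introns; one of them, in Pvr, is described with its locus. In Samsn1, which encodes an adaptor that restrains lymphocyte activation, an intronic region 12899 bp past the TSS (chr16:75896421-75896804) went from 4.31 to 25.3 RPKM of RelB in WT, and RelA fell from 54.9 RPKM in WT (371 reads) to 6.85 in RelBko (63 reads), a ratio of 0.125 (interval 0.0939 to 0.163). There the RelB antibody gave 1.64 and 3.07 RPKM in RelBko at 0 and 1 h, and the input 1.18. Ksr1, a scaffold of the ERK kinase cascade, had RelB at 20.2 and 52.8 RPKM in WT and RelA at 20.5 RPKM in WT and 4.52 in RelBko (ratio 0.221, interval 0.146 to 0.327). Il21r, the interleukin 21 receptor, had RelB at 9.11 and 29.6 RPKM and RelA at 17.7 and 4.20 RPKM (ratio 0.238, interval 0.157 to 0.353). In these 3 introns RelA in RelBko was at most 0.238 of its WT level.

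The rest of the 6 largest losses lay at promoters, with RelA ratios of 0.333 and 0.364. Cfb, complement factor B, had a region 124 bp upstream of the TSS (chr17:34999415-34999752) with RelB at 4.81 and 11.8 RPKM in WT and RelA at 18.2 RPKM in WT against 6.05 in RelBko, a ratio of 0.333 (interval 0.233 to 0.471). At Theg, a gene named for its expression in testis, a region 893 bp upstream had RelB at 8.98 and 28.8 RPKM and RelA at 16.7 and 6.07 RPKM (ratio 0.364, interval 0.258 to 0.507). Lower RelA was found at 9 of 249 gained promoters (3.61%, interval 1.91 to 6.73%) and 112 of 1703 gained introns (6.58%, interval 5.49 to 7.86%). Among not gained regions 13 of 5283 promoters were lower (0.25%, interval 0.14 to 0.42%) and 3.03% of introns, and between genes the shares were 5.22% of gained and 3.30% of not gained regions. Whether the contrast differs between classes was not tested. By distance, 2.68% of gained regions within 1 kb of a TSS were lower and 0.29% of not gained ones, and from 10 to 100 kb 6.98% and 3.36%.

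The 24 regions with higher RelA in RelBko had lower RelB medians in WT than all gained regions. The medians were 4.26 RPKM at 0 h and 13.4 at 1 h, against 6.41 and 18.9 RPKM. The 200 regions with lower RelA were below all gained regions too, at 5.42 and 15.7 RPKM. Median RelA at the 24 was 10.9 RPKM in WT and 25.2 in RelBko. Near Batf, an AP-1 family factor of dendritic and T cells, a region 22330 bp upstream of the TSS (chr12:87005164-87005517) had RelB at 2.74 and 11.3 RPKM in WT and RelA at 9.64 RPKM in WT against 27.2 in RelBko (ratio 2.83, interval 2.12 to 3.82). The RelB antibody gave 2.58 and 3.33 RPKM there in RelBko and the input 1.29. In an intron of Il6ra, the interleukin 6 receptor, RelA was 8.98 RPKM in WT and 22.9 in RelBko (ratio 2.55, interval 1.94 to 3.40). At Med21, a subunit of the Mediator complex, a promoter region had 6.43 and 16.6 RPKM (ratio 2.58, interval 1.83 to 3.71). The other regions named by the same rank were 4930593A02Rik at 12.4 and 36.3 RPKM, Trim35 at 8.12 and 21.1 RPKM and an intron of Dock10 at 10.2 and 26.3 RPKM.

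The antibody to RelB was also read in cells without RelB, where the direction of its median change after LPS depended on the scaling. At gained regions its median signal was 1.60 RPKM at 0 h and 1.52 at 1 h in RelBko, against 1.01 RPKM in the input, and 707 (20.4%) and 540 (15.6%) of the regions were enriched. Of not gained regions 55.8% and 16.3% were enriched, and of all 93611 regions 24.1% and 6.36%. The median log2 ratio of 1 h over 0 h at gained regions was -0.10. It was 0.29 with the libraries scaled to a median ratio of 1 and 0.12 at regions with a WT gain of 3-fold or more. With scaling on regions without enrichment it stayed negative, at -0.16. Of the gained regions 114 (3.29%) were 2-fold or more higher and 159 (4.58%) lower, against 1.59% and 18.1% of all 93611 regions. Not gained regions fell from 3.28 to 1.79 RPKM in the same libraries (median log2 -0.73), with 0.42% higher and 30.5% lower. Signal of this antibody without RelB thus moved with the WT ratio: at the 534 regions with a WT gain of 4-fold or more, it went from 1.22 to 1.54 RPKM (median log2 0.26). Its part in the WT gain was not tested; when the RelBko signal of each time was subtracted from WT before the rule, 3116 of the 3469 regions (89.8%) were still chosen, among 5064 in all.

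RelB at 1 h ran from 112 to 138 RPKM over the 10 strongest gained regions. Upstream of Atp2a3, a calcium pump of the endoplasmic reticulum, a region (chr11:72767263-72767654) went from 40.1 to 138 RPKM of RelB, with RelA at 117 RPKM in WT and 139.8 in RelBko, RelBko RelB antibody signal at 10.1 and 7.20 RPKM and input at 1.74. A Dusp2 region 746 bp upstream of the TSS (chr2:127160962-127161336) went from 39.0 to 138 RPKM, with RelA at 121 and 134 RPKM, RelBko RelB antibody signal at 9.30 and 8.07 RPKM and input at 1.21. For the Tnf promoter, of the gene for tumour necrosis factor, RelB went from 53.6 to 112 RPKM, RelA was 120.1 and 116 RPKM, the RelB antibody in RelBko gave 4.77 and 9.16 RPKM and the input 2.26. The other 7 of the 10 highest were an intron by Mir7001 (123 RPKM at 1 h), an intron by Stfa3 (121), a region by D10Jhu81e (119.9), the Sbf2 promoter (115), a region by Pvr (115), one by A530013C23Rik (112) and the Chd9 promoter (112). Over these 10 regions the RelA ratio of RelBko to WT ran from 0.804 (Pvr, interval 0.705 to 0.917) to 1.19 (Atp2a3, interval 1.09 to 1.30).

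The 10 largest ratios of RelB at 1 h over 0 h started from 0.554 to 4.84 RPKM. By Khdc1a, RelB went from 1.14 to 25.0 RPKM, with RelA at 22.9 RPKM in WT and 31.6 in RelBko, and in an intron of Mtmr12, a phosphoinositide phosphatase-like protein, from 0.588 to 16.3 RPKM with RelA at 18.8 and 16.9 RPKM. Fgr, a Src family kinase of myeloid cells, had an intronic region 909 bp past the TSS that went from 4.84 to 53.9 RPKM of RelB (input 1.02), with RelA at 44.6 and 45.2 RPKM (ratio 1.01, interval 0.870 to 1.18). Near Traf3, which holds the noncanonical pathway off by destroying the kinase NIK, RelB went from 2.09 to 26.3 RPKM and RelA was 13.9 and 16.5 RPKM. The remaining regions of this rank were near 4933427D06Rik, Mir582, Rora, Nat10 and Gm4651 and in a Pvr intron described below. In the Rora intron RelA was lower in RelBko (5.43 and 2.79 RPKM, ratio 0.514, interval 0.280 to 0.928), and by Mir582 it was higher (27.1 and 35.3 RPKM, ratio 1.30, interval 1.07 to 1.59).

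**Figure D4:**
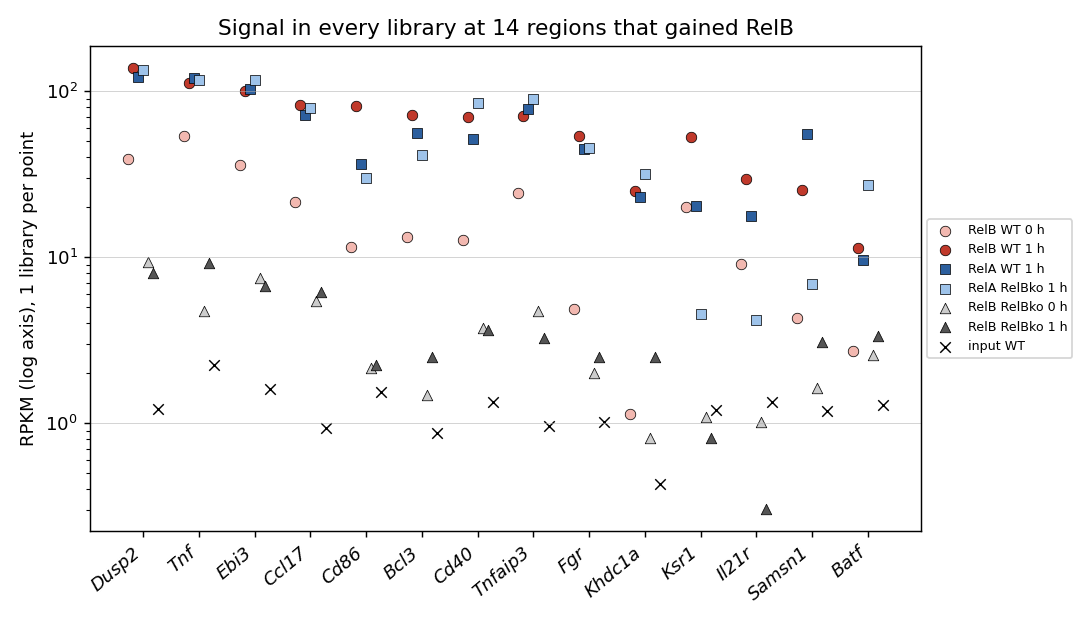
Signal in each of the 7 libraries at 14 gained regions, labelled by gene, in RPKM on a log axis; every point is 1 library. RelB in WT rises from 0 h to 1 h at all 14 by the rule, the RelA squares nearly overlap from Dusp2 to Ccl17, and they part at Ksr1, Il21r and Samsn1 (lower in RelBko) and at Batf (higher).

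Gained regions were placed by the deposited annotation at introns (1703, 49.1%), between genes (1340, 38.6%) and at promoters (249, 7.18%, interval 6.37 to 8.09%), with 55 at gene ends, 46 in exons, 36 in 3′ UTRs, 30 in 5′ UTRs and 10 in non-coding genes. Promoters made up 17.7% of not gained regions and introns 41.1%. The median distance to the nearest TSS was 16087 bp for gained and 12415 bp for not gained regions, and 12.9% and 24.1% lay within 1 kb. Over all regions the median distance was larger than in either set, 18369 bp, and 15.7% lay within 1 kb. The promoter share depended on the level of RelB at 1 h: from 10 to 15 RPKM it was 5.26% for gained and 21.2% for not gained regions, and from 50 RPKM up it was 11.7% (interval 8.30 to 16.4%) and 8.53% (7.61 to 9.56%), so the order of the sets turned and the intervals overlapped at the top. The share also moved to 16.0% of 5064 regions when the RelBko signal was subtracted before the rule. Gained promoters had a median RelB of 8.83 RPKM at 0 h and 23.0 at 1 h, gained introns 6.20 and 18.7 RPKM.

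**Figure D5:**
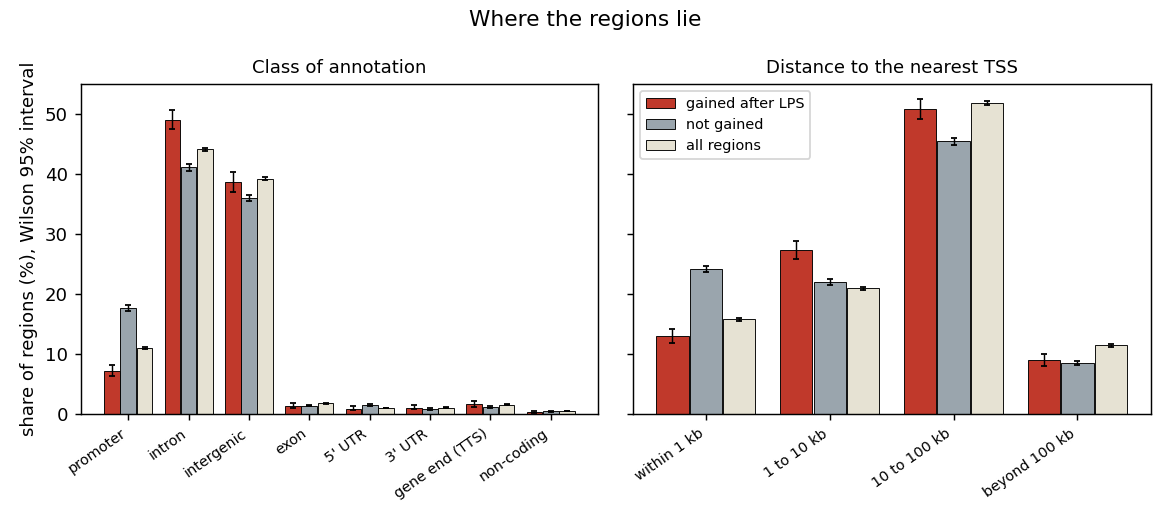
Share of regions in percent by class of annotation (left) and by distance to the nearest TSS (right), for gained regions, not gained regions and all 93611 regions; bars start at 0 and whiskers are Wilson 95% intervals. Gained regions had fewer promoters than not gained ones, 7.18% against 17.7%, and more introns, 49.1% against 41.1%. For all regions these shares were 11.0% and 44.1%.

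Within 100 kb of a TSS, 3158 gained regions were assigned to 2291 of the 18214 genes with any region there (12.6%), and 311 lay farther away. A single gained region was the rule: 1698 genes had 1, 420 had 2 and 173 had 3 or more. Among 2221 genes with a gained region and at least 2 regions in all, the region with the highest WT RelA signal was gained in 729 (32.8%). No comparison with other regions of these genes was made for this share. Genes with many regions have more chances to hold a gained one, so the counts below are given beside the number of regions.

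Of gained regions 34.8% had another gained region within 20 kb, and of not gained regions 20.1% had a gained one there. Of regions within 20 kb of a gained region, 18.6% of those passing the level and input limits were gained too, against 11.1% around not gained regions. Joining gained regions less than 20 kb apart gave 2768 groups, of which 2249 were single regions, 519 had 2 or more and 30 had 4 or more. Across the 20 chromosomes the gained share of regions passing the limits ran from 8.01% on chromosome 19 to 11.9% on chromosome 18.

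The largest group, 11 gained regions over 34.8 kb of chromosome 7 (20494104 to 20528862), spanned Pvr, a ligand of the lymphocyte receptors DNAM-1 and TIGIT, and Igsf23. Pvr held 9 gained regions of 10 in all, with RelB at 1 h from 17.1 to 115 RPKM. Its strongest, 1024 bp upstream of the TSS, went from 31.3 to 115 RPKM of RelB with RelA at 63.8 RPKM in WT and 51.3 in RelBko. An intronic region 12232 bp past the TSS went from 1.27 to 22.5 RPKM of RelB, and RelA there fell from 22.1 RPKM in WT (122 reads) to 3.99 in RelBko (30 reads), a ratio of 0.181 (interval 0.117 to 0.271), with RelBko RelB antibody signal at 0.182 and 0.490 RPKM and input at 0.724. Another intronic region, 7404 bp past the TSS, moved the other way, from 24.1 to 46.4 RPKM of RelA (ratio 1.92, interval 1.65 to 2.25). The 9 Pvr regions thus held RelA ratios from log2 -2.33 to 0.93, and an Igsf23 intron in the group had the lowest of its 11, -3.06. The group lies close to Relb on chromosome 7, the gene altered in RelBko; 39 gained regions lay within 10 Mb of Relb, of which 2 had lower RelA, the Pvr intron region and that of Igsf23 (16.6 and 1.55 RPKM). The median log2 ratio of the 39 was 0.02, and whether sequence next to the altered gene differs between the genotypes was not tested. None of the 5 regions assigned to Relb was gained: at its promoter RelB signal went from 104 to 49.3 RPKM.

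The other 7 genes with most gained regions had them among 16 to 48 regions each. Dock10, an activator of the GTPase Cdc42, had 9 gained of 48 regions. One Dock10 intron region of high RelB (37.9 and 78.4 RPKM) had RelA at 26.3 RPKM in WT and 10.9 in RelBko (ratio 0.416, interval 0.321 to 0.536), while the one described above had higher RelA. Gm14005 had 9 of 34, with RelB at 1 h from 22.3 to 67.8 RPKM and a median RelA log2 ratio of 0.15 (range -0.003 to 0.74). Cd44, a receptor for hyaluronan, had 8 of 33 regions, with RelB at its promoter at 17.9 and 38.5 RPKM and RelA at 40.6 and 34.9 RPKM. Etv6, an ETS family repressor, had 8 of 31, all intronic, with a median RelA log2 ratio of 0.34 (range -0.15 to 0.72). Fos, the AP-1 subunit, had 7 of 20, and the strongest, 39956 bp past the TSS, went from 41.1 to 98.4 RPKM of RelB with RelA at 82.4 and 98.5 RPKM. Il12a, the p35 subunit of interleukin 12, had 7 of 16, spread over 77.2 kb. The Il12a region 57865 bp upstream went from 17.2 to 53.6 RPKM of RelB with RelA at 39.5 and 33.2 RPKM, and the one 6774 bp upstream had RelA at 6.97 and 3.45 RPKM (ratio 0.495, interval 0.303 to 0.797). Arhgap26, a GTPase-activating protein, had 7 of 30, with a median RelA log2 ratio of 0.20 (range 0.09 to 0.75). The median over all 3469 gained regions was 0.03. Regions of a gene share the same RelA libraries and are not replicates, so no difference of a gene is read from these values.

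Among 14 gene lists, dendritic cell maturation genes most often had a gained region, 21 of 30 genes (70.0%) against the 12.6% of all genes. As shares of their regions passing the level and input limits, the numbers were 33 of 197 (16.8%) for this list and 10.3% for all genes. The list had a median of 7.5 regions per gene against 3 for all genes; the part of this in the count of genes was not tested. Cd86, a costimulatory ligand of CD28 on T cells, had an intronic region (chr16:36623219-36623563) that went from 11.6 to 81.6 RPKM of RelB, with RelA at 36.3 RPKM in WT and 30.1 in RelBko (ratio 0.831, interval 0.690 to 1.00), RelBko RelB antibody signal at 2.16 and 2.23 RPKM and input at 1.54. Cd40, the receptor through which helper T cells license dendritic cells, had a region 5937 bp upstream (chr2:164875031-164875368) that went from 12.7 to 70.2 RPKM of RelB; RelA was 51.6 RPKM in WT and 85.2 in RelBko (ratio 1.65, interval 1.44 to 1.89), with RelBko RelB antibody signal at 3.72 and 3.64 RPKM and input at 1.35. Ccl17, a chemokine for CCR4-bearing T cells, went from 21.5 to 82.4 RPKM of RelB with RelA at 71.8 and 79.4 RPKM. Icam1, an adhesion molecule of the dendritic cell to T cell contact, went from 28.1 to 67.0 RPKM of RelB with RelA at 67.8 and 75.0 RPKM. Of the 33 regions on this list 0 had RelA 2-fold lower in RelBko, against 188 of the 3158 gained regions near genes, a share at which few of 33 would be lower. The median log2 ratio was 0.16 for the list and 0.03 for the 3158.

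Inflammatory cytokine and chemokine genes had the highest share of regions gained. Of 35 genes 18 had a gained region, and 41 of their 184 regions passing the limits were gained (22.3%, against 10.3% for all genes), with a median RelB of 7.62 RPKM at 0 h and 26.1 at 1 h. Beside Tnf, Ebi3 and Ccl17, the strongest was 66453 bp upstream of Il6, an acute-phase cytokine, at 29.1 and 68.1 RPKM of RelB and 41.6 and 41.1 RPKM of RelA. Of the 41 regions 0 had RelA 2-fold lower and 0 had it 2-fold higher in RelBko, against 188 and 24 of the 3158, so these counts are no result about the list. Its median log2 ratio was 0.15. Ccl17, Ccl22 and Tnfsf9 are also on the dendritic cell maturation list, so their gained regions count in both lists.

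NF-kB pathway and feedback genes were close to the background by region: 10 of 25 genes and 18 of 156 regions (11.5%). Bcl3, an atypical IkB protein that works in the nucleus, had a region 4325 bp upstream that went from 13.2 to 72.2 RPKM of RelB, with RelA at 55.5 RPKM in WT and 41.1 in RelBko (ratio 0.741, interval 0.636 to 0.863). This region lies within 10 Mb of Relb, and whether sequence there differs between the genotypes was not tested. Tnfaip3, the ubiquitin editor A20, went from 24.2 to 70.5 RPKM of RelB 62470 bp upstream, with RelA at 77.7 and 89.7 RPKM. Nfkbiz, a nuclear IkB protein, went from 29.4 to 64.4 RPKM, with RelA at 40.5 and 40.3 RPKM, and Traf1, a signalling adaptor, from 26.1 to 55.8 RPKM with RelA at 34.2 and 40.6 RPKM. The noncanonical NF-kB list had a gained region in 5 of 13 genes, over 6 of 50 regions. Beside Cd40 and Traf3 they were Tnfrsf13b (31.7 and 72.0 RPKM of RelB), Tnfrsf13c (27.9 and 63.5 RPKM), both receptors for BAFF family ligands, and Lta (16.4 and 34.1 RPKM), a lymphotoxin.

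Interferon genes stood at 5 of 32 genes and 6 of 82 regions (7.32%). At Isg15 and Ifi205, an interferon-inducible DNA sensor family gene, promoter regions had RelA at 30.9 and 41.9 RPKM and at 24.2 and 26.9 RPKM in WT and RelBko. In an intron assigned to Irf1, an interferon regulatory factor, RelA was 9.96 RPKM in WT and 4.79 in RelBko (ratio 0.481, interval 0.307 to 0.745). The list's median log2 ratio was -0.50, over 6 regions, against 0.03 for all gained regions near genes; with so few regions nothing particular to the list is read from it.

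Immediate early genes had a gained region in 11 of 28 genes, over 23 of 183 regions (12.6%). Beside Dusp2 and Fos, Fosl2, another AP-1 subunit, went from 24.7 to 63.0 RPKM of RelB with RelA at 43.9 and 52.2 RPKM, and the promoter of Klf2, a factor of quiescence, from 14.2 to 32.9 RPKM with RelA at 22.5 and 27.3 RPKM. One region of the 23 had lower RelA, 46146 bp upstream of Jun (11.6 and 3.71 RPKM); it is named because of that value. Survival and stress genes stood at 7 of 21 genes and 9 of 118 regions (7.63%). There Bcl2l1, an anti-apoptotic BCL2 relative, went from 41.4 to 93.1 RPKM of RelB with RelA at 112 and 115 RPKM, Gadd45b from 34.9 to 82.9 RPKM, and Sod2, the mitochondrial superoxide dismutase, from 6.80 to 26.3 RPKM with RelA at 64.9 and 59.2 RPKM. Slc7a11, a cystine transporter, went from 5.67 to 14.6 RPKM.

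Myeloid and dendritic cell lineage genes had a gained region in 10 of 33 genes, over 16 of 168 regions (9.52%). They included Batf3, a factor required for cross-presenting dendritic cells (17.7 and 37.3 RPKM of RelB), Irf4, a factor of another dendritic cell lineage (8.54 and 30.9 RPKM), Mertk, a receptor for apoptotic cells (10.4 and 34.2 RPKM), and Clec7a, the beta-glucan receptor (12.6 and 28.8 RPKM). RelA in RelBko was within 1.25-fold of WT at these 4, while of the 16 regions 1 had it 2-fold lower and 1, the Batf region above, 2-fold higher. Housekeeping genes stood at 4 of 18 genes and 5 of 53 regions (9.43%), none within 10 kb of a TSS, among them Actb at 10.2 and 36.2 RPKM of RelB. Markers of other cells had few regions passing the limits, so their shares rest on small counts. Macrophage markers had a gained region in 2 of 10 genes (Mrc1 and Mertk) and 2 of 17 regions (11.8%), and neutrophil markers in 2 of 11 genes (Cebpe and Prtn3) and 2 of 10 regions (20.0%). B cell markers stood at 1 of 10 genes (Fcer2a) and 1 of 13 regions (7.69%), erythroid and mast cell markers at 1 of 7 genes (Kit) and 1 of 11 regions (9.09%), and T and NK cell markers at 0 of 12 genes and 0 of 20 regions. Their RelB signal at 1 h was 37.3 RPKM at Mrc1, 33.5 at Cebpe, 15.5 at Prtn3, 13.3 at Fcer2a and 10.9 at Kit.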

How the data were processed

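The authors deposited RPKM values for 7 libraries over 93611 regions, per the file headers, with the nearest gene, a class of annotation and the signed distance to a TSS in bp (other deposited columns, per the labels and headers). Per the submitters' processing notes the build was mm9 and the tools included HISAT2, HOMER and bedtools; how regions were chosen is not stated there. RPKM times region length came in whole multiples of a fixed step per library (100% of values within 0.01 read), which gave reads and library totals; a read may have been added to each count. Ratios used a pseudocount of 0.5 RPKM, which understates the change of weak regions. Positions are mm9, counted from 1, unless GRCm38.p6 is named. Genes were taken within 100 kb of a TSS.

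The gained regions and the 14 lists (284 genes, 272 found, 1 through an older symbol) were chosen with earlier results of these data known. Named regions were, one per gene: the 10 highest RelB signals at 1 h, the 10 largest 1 h to 0 h ratios, the 8 genes with most gained regions (all regions), the 6 lowest and 6 highest RelA ratios at a mean of 10 RPKM or more, and up to 4 per list by RelB signal. Promoter windows from RefSeq replaced windows of the regions, since no mm9 genome was used here; their overlap with regions was taken from distances to the TSS, and Cxcl1, Gch1 and the Dusp2 window were chosen after their values were seen. The selection was run on simulated reads with counting error only and gains of 3-fold or 4-fold. That run says nothing about gains near the 2-fold limit or about variation between libraries. Software was Python 3.11.15, numpy 2.4.6, pandas 2.3.3, scipy 1.17.1 and matplotlib 3.10.9.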

Additional observations from a re-analysis of the deposited data

Results flagged for a closer look

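At the gained regions the RelB antibody signal rose with LPS in WT and had a median log2 ratio of 1 h over 0 h of -0.10 in RelBko. The direction in WT is fixed by how the regions were chosen, and with 1 library per group the difference between the genotypes was not tested.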

How the results depend on the processing

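The number of gained regions followed its limits: 5897 at 5 RPKM or more, 1601 at 20 RPKM or more, 1181 at 3-fold and 7599 at 1.5-fold, with 403, 62, 73 and 375 regions of lower RelA in RelBko. Both counts stayed within 1.5 times under the other 8 settings. With both libraries of a ratio scaled to a median ratio of 1, 2712 of the 3469 regions were chosen and no others. Before that scaling the median log2 ratio over all 93611 regions was 0.14 for RelB in WT and -0.43 for RelBko RelB. For RelA it was -0.06 over the 80885 regions compared. With scaling on regions without enrichment, 2885 of the 3469 were chosen. The median RelA log2 ratio ran from 0.00 to 0.13 over the settings. The median RelBko RelB log2 ratio ran from -0.37 to 0.29 over the settings. It reversed to 0.12 at 3-fold or more and to 0.29 with a median ratio of 1, and was -0.16 with scaling on regions without enrichment. No paired analysis was possible because each group held 1 library, and no library could be left out. Motif windows within the regions were not run, as they need an mm9 genome. Leaving out regions under 200 bp or within 10 Mb of Relb, chosen after seeing the data, gave 3420 and 3430 regions with 200 and 198 of lower RelA. The 5-read median of the input and the 10 and 11 reads of the RelBko RelB libraries limit the precision of ratios that use them.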
